A study of Mus musculus with 7 samples.

Results

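Translation initiation factors are the proteins that bring a ribosome to the start codon of an mRNA. Their genes were taken as all rows of the deposited table whose symbol begins with Eif followed by a digit from 1 to 6 and carries no pseudogene suffix: 54 genes of 35641. Of 64 rows with such a symbol, 10 carried the suffix. The libraries came from lung cells of female C57BL6 mice, which the labels call neutrophils and which were sorted for CD45, CD11b and Ly6G and for low Ly6C. The groups are named HF (4 libraries, HF1 to HF4) and LF (3 libraries, whose columns are named LF6, LF7 and LF8). The labels spell out neither name and give no age or treatment, while the series' title speaks of obesity and oxidative stress. The design text counts 4 HF and 3 LF mice, and recovered reads ranged from 13943173 to 18983351 per library.

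The libraries labelled LF went against the sort. Ly6g, the gene of the sort marker Ly6G, stood at 4431, 1301, 2378 and 4944 normalized counts in HF1 to HF4 and at 0.749, 0 and 8.22 in LF6 to LF8. Of 12 neutrophil markers, 12 averaged 10 or more normalized counts in HF and 8 among the libraries labelled LF, and their summed level per library was 421820.0 to 569424 against 8129 to 8702. The 12 monocyte markers, all present in both groups, summed to 24885 to 31340.0 against 173609 to 184159.8. The 9 dendritic cell and MHC class II genes summed to 12439 to 30884 against 72359 to 88484. Markers of 2 other cell types were higher in HF: the 6 erythroid markers summed to 5308 to 10951 against 2859 to 4249, and 7 platelet markers to 733 to 3257, with HF3 far above the next HF library at 889, against 151 to 343. The part of these 2 marker lists in the genes higher in HF was not tested. Every difference reported is one between the HF libraries and the libraries labelled LF, and the labelled group and the cell type cannot be told apart in it. In such bulk samples, fewer cells of a type and less RNA per cell cannot be told apart either.

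Initiation runs in steps. The small ribosomal subunit, held ready by eIF1, eIF1A and eIF3, takes up the initiator tRNA as a ternary complex with eIF2 and GTP. It is then loaded on the capped end of an mRNA by eIF4F, which is made of the cap-binding protein eIF4E, the scaffold eIF4G and the helicase eIF4A, and it scans to the start codon, where eIF5 triggers GTP hydrolysis and eIF5B joins the large subunit. The main brakes are kinases that phosphorylate the alpha subunit of eIF2 and so block its exchange factor eIF2B, and 4E-BP proteins that hold eIF4E until the kinase mTOR releases it. Mature neutrophils are short-lived cells that no longer divide and carry little RNA.

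Most initiation factor genes were lower in HF, among them nearly the whole eIF3 complex, while Eif1, Eif5, the kinase gene Eif2ak3 and the eIF4E inhibitor genes Eif4ebp1 and Eif4ebp2 were higher. Of the 54, 52 averaged 10 or more normalized counts over the 7 libraries, the minimum for a test. The other two, Eif4ebp3 and Eif2c5 (named in an older series for Argonaute genes), lay below it, and Eif2c5 had 3 reads in HF2, 1 in LF8 and none elsewhere. Of the 52, 34 were lower and 6 higher in HF (limma adjusted p under 0.05 over all 14936 tested genes), and 12 did not pass. Over all tested genes, 28.7% were lower and 26.2% higher, or 55% in either direction. The median log2 difference of the 52 was -0.79, beside -0.16 for all tested genes. Groups did not overlap in 44 of the 52, beside 62.2% of all tested genes. The sixth higher gene was Eif2d. With all libraries set to equal totals, which moved the median of all genes by -0.51, the counts became 43 lower and 4 higher, without Eif4ebp2 and Eif2d. The median of the 52 was then -1.31, beside -0.67 for all tested genes. Over all genes this scaling gave 30.0% of calls as higher in HF, where the deposited scaling gave 47.7%. After quantile normalization the counts were 35 lower and 8 higher, beside 4003 lower and 3976 higher among all 14936 tested genes. The authors' deposited table called 33 of the 54 lower and 6 higher at an adjusted p under 0.05. The share of all genes called there was not computed.

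**Figure D1:**
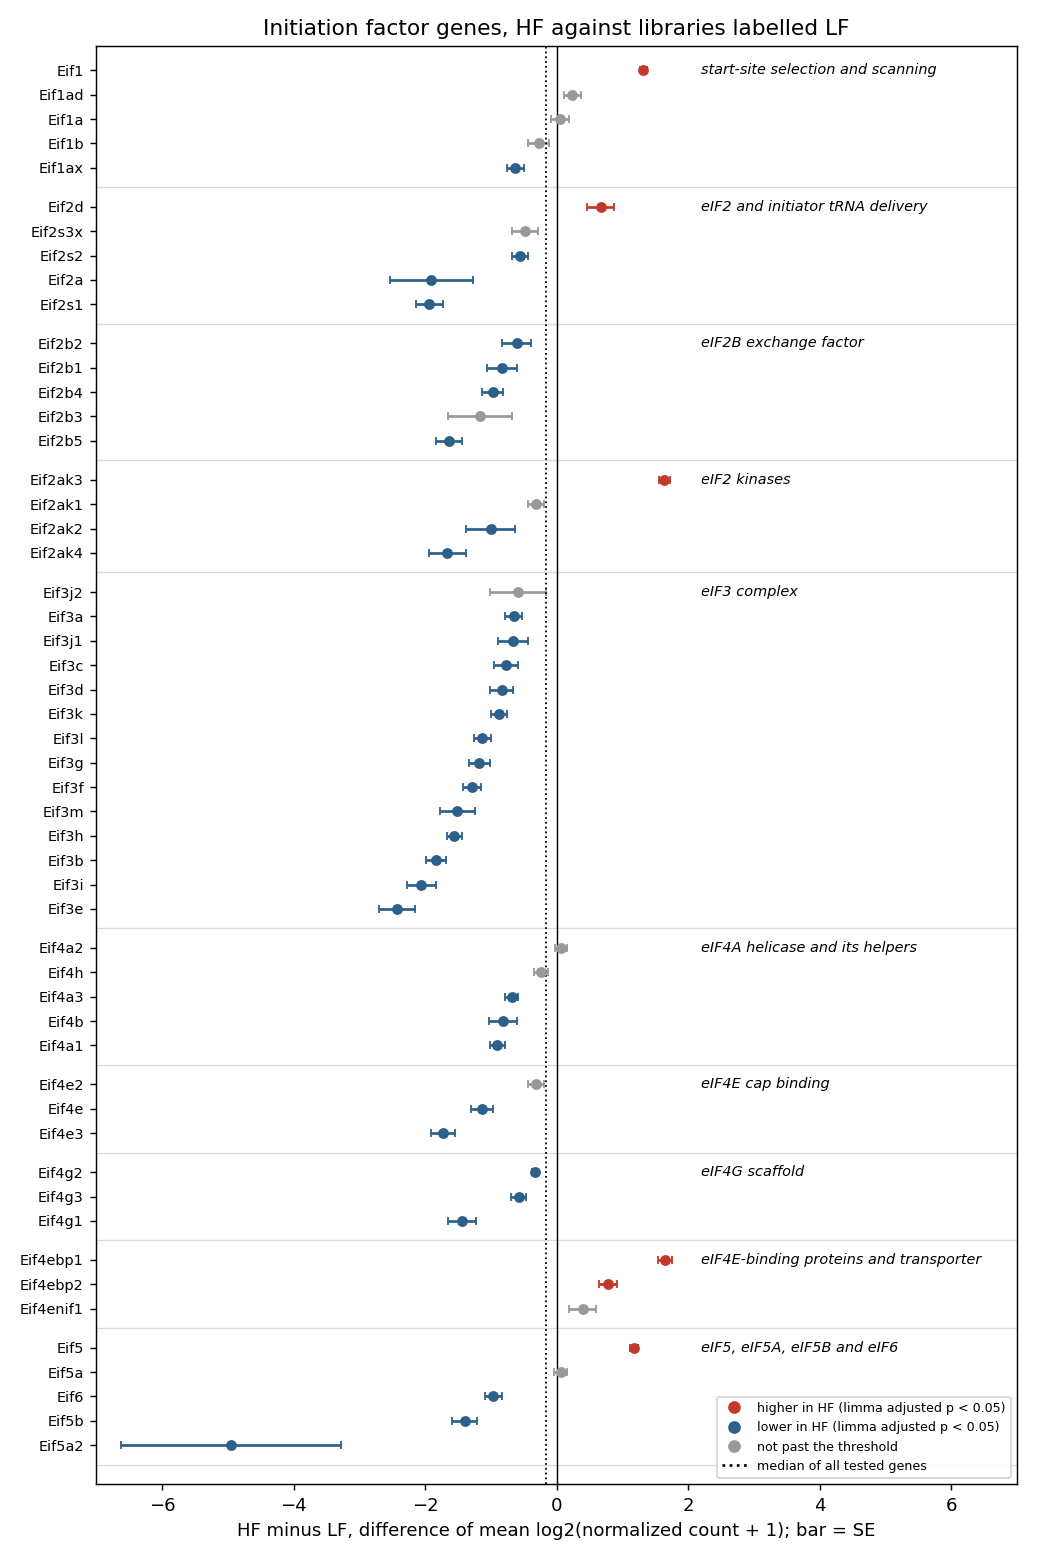
Difference of mean log2(normalized count + 1) between HF and the libraries labelled LF for the 52 tested initiation factor genes, grouped by role; bars are standard errors, colours give the limma call and the dotted line is the median of all tested genes, -0.16. Of the 52 genes, 34 were lower and 6 higher in HF, and all 14 eIF3 genes lie left of 0.

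The make-up of the family differed as well as its size. Reads of the 54 genes took 0.529%, 0.509%, 0.521% and 0.481% of HF1 to HF4 and 0.785%, 0.783% and 0.778% of LF6 to LF8, so every HF library lay below every library labelled LF. Within this total Eif1 took 18.3 to 20.2% in HF against 7.09 to 7.39% in the libraries labelled LF. Eif5 took 12.1 to 13.2% and 5.14 to 5.41%. The 14 eIF3 genes together went the other way, with 10.011 to 11.1% in HF and 21.8 to 22.2%. Shares within the family do not depend on how libraries are scaled. Levels were compared between genes per kilobase of annotated exon (GENCODE M21). On that scale Eif1 was the highest of the 52 in both groups, at 8726 in HF against 3496 in the libraries labelled LF, and Eif5a, at 2676 in HF against 2549.5 in the libraries labelled LF, was the second in both. Eif4ebp1 took place 3 in HF at 2073 and took place 11 in the libraries labelled LF at 659. Eif2ak3 took place 12 in HF at 412 and place 39 at 132. In the opposite sense, Eif3h took place 11 in HF at 418 and place 4 at 1227. Exon lengths count every annotated isoform, so these levels are approximate.

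The promoters of members that moved in opposite directions are shown with short motifs that were searched in them. RefSeq windows from 250 bases before to 50 bases after the start were found for 43 of the 54 genes, and not for Eif4ebp1. Both strands were searched for CACGTG (the E-box that MYC and its relatives bind), CCGGAAG (an ETS motif), GCATGCGC (a part of the NRF1 site), CCAAT (the CCAAT box) and TGATGCAA (the core of a C/EBP-ATF response element). CACGTG was found in 8 of the 43 windows (18.6%), beside 7.90% of 17492 windows of protein-coding genes. It was in 6 of 28 windows of genes lower in HF (Eif3a, Eif3f, Eif3k, Eif4a1, Eif4g1 and Eif5a2), in 0 of 5 windows of genes higher in HF and in 2 of 9 windows of genes that did not pass (Eif1b and Eif4h). The shares of the lower genes (21.4%) and of those that did not pass (22.2%) were alike, and 5 windows are too few to set the higher genes apart. CCGGAAG was in 14 windows (32.6%, beside 11.9%), GCATGCGC in 3 (6.98%, beside 3.61%), CCAAT in 13 (30.2%, beside 39.0%) and TGATGCAA in 0 (beside 0.909%). The stretches printed lie upstream of every start of the gene in RefSeq and GENCODE M21. Eif1 and Eif2ak3 are shown as clear increases and Eif3f, Eif3k and Eif4a1 as lower genes with CACGTG, all chosen after their values were seen. Capitals mark the motifs: CACGTG in these 3 lower genes, and CCAAT or its reverse complement ATTGG in all 5. That all 5 hold CCAAT follows from which genes are printed. Among higher genes not printed, the stretches of Eif5 and Eif2d held none of the motifs and that of Eif4ebp2 held CCGGAAG only. Over the whole windows, CCAAT was in 3 of 5 of the higher genes, 8 of 28 of the lower and 2 of 9 that did not pass. In Eif3k, GCATGCGC and its reverse complement overlap in 1 run.
Eif1, higher in HF (GRCm38.p6, chr11:100319699-100319884, plus strand): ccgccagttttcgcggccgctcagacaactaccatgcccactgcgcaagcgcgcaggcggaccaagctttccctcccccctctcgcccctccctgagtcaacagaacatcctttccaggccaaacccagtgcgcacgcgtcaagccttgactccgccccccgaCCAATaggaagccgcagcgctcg
Eif2ak3, higher in HF (GRCm38.p6, chr6:70844315-70844514, plus strand): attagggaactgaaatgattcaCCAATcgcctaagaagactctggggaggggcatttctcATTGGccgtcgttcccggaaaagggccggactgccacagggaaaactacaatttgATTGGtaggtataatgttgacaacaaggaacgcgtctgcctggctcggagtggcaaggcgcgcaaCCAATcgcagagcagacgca
Eif3f, lower in HF (GRCm38.p6, chr7:108934215-108934414, plus strand): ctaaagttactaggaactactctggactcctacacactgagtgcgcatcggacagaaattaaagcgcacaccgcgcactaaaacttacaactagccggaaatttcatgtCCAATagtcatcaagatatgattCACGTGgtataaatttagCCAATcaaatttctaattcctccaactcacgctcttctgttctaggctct
Eif3k, lower in HF (GRCm38.p6, chr7:28981889-28982088, minus strand): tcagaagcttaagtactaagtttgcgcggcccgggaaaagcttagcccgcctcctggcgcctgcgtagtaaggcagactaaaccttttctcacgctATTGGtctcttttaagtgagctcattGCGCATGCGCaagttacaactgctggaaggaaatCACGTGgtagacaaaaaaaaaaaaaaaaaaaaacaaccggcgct
Eif4a1, lower in HF (GRCm38.p6, chr11:69672424-69672623, minus strand): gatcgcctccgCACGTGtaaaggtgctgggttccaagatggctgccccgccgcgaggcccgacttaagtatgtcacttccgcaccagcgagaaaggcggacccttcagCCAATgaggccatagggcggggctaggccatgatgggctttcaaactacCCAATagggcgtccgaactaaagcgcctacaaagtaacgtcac
A match describes the letters only, and genes with and without CACGTG were both found among those lower in HF.

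The first role in the pathway is start-site selection. Of its 5 genes, Eif1 was higher (beside 26.2% of all tested genes), Eif1ax was lower (beside 28.7%) and 3 did not pass. Eif1 (ENSMUSG00000035530) encodes eIF1, which keeps the scanning subunit open and guards the choice of start codon. It stood at 17645, 18403, 18807 and 18376 normalized counts in HF1 to HF4, and 7585, 7249 and 7170.1 in LF6 to LF8. All 4 HF libraries lay within a narrow band at more than 2 times the level of any library labelled LF. The log2 difference was 1.32 ± 0.05 (SE; limma adjusted p = 3.8e-07), and Eif1 was higher under every alternative run. Its paralog Eif1b stood at 636, 467, 667 and 644 normalized counts in HF1 to HF4, and 723, 724 and 723 in LF6 to LF8. The groups did not overlap, HF being the lower one here, and the difference of -0.27 ± 0.16 (SE; limma adjusted p = 0.167) did not pass. It passed with equal library totals (-0.79).

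The eIF1A genes code for the partner that binds beside eIF1 and helps scanning. Eif1ax, its X-linked gene, stood at 513, 428, 424 and 422 normalized counts in HF1 to HF4, and 734, 671 and 661 in LF6 to LF8. HF1 was the highest HF library and still lay below LF8, the lowest of the others. The difference was -0.63 ± 0.14 (SE; limma adjusted p = 0.00519). Eif1a, an autosomal gene for the same factor, stood at 1450.2, 1272, 1805 and 1570.2 normalized counts in HF1 to HF4, and 1329, 1485 and 1569 in LF6 to LF8. Here the groups overlapped, and the difference of 0.05 ± 0.14 (SE; limma adjusted p = 0.755) turned to -0.47 with equal library totals, where it passed, and to -0.11 after quantile normalization, where it did not. Without HF3 it was -0.03 and without LF6 -0.01. Eif1ad, which encodes a protein with an eIF1A domain, stood at 561, 647, 596 and 612 normalized counts in HF1 to HF4, and 569, 475 and 495 in LF6 to LF8. Its groups overlapped too, with a difference of 0.24 ± 0.13 (SE; limma adjusted p = 0.158) that turned to -0.28 with equal library totals. After quantile normalization Eif1ad passed as higher (0.51, adjusted p = 0.0145).

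Of the 5 genes of eIF2 and of other routes for the initiator tRNA, 3 were lower, 1 was higher and 1 did not pass. Over all tested genes 28.7% were lower and 26.2% higher. The trimer eIF2 carries the initiator tRNA, and its alpha subunit, encoded by Eif2s1 (ENSMUSG00000021116), holds the serine that stress kinases phosphorylate. Eif2s1 stood at 444, 455, 547 and 287 normalized counts in HF1 to HF4, and 1646, 1631 and 1577 in LF6 to LF8. All HF libraries lay far below the others, with a difference of -1.94 ± 0.21 (SE; limma adjusted p = 0.00013). The other subunits differed less. Eif2s2, the beta subunit, stood at 548, 492, 593 and 529 normalized counts in HF1 to HF4, and 783, 764 and 832 in LF6 to LF8, without overlap and with a difference of -0.55 ± 0.12 (SE; limma adjusted p = 0.00574). Eif2s3x, the gamma subunit that binds GTP and the tRNA, stood at 233, 294, 295 and 203 normalized counts in HF1 to HF4, and 341, 362 and 358 in LF6 to LF8. HF was below in every library, but the difference of -0.48 ± 0.19 (SE; limma adjusted p = 0.0667) did not pass. It passed without HF2 (adjusted p = 0.0457) or HF3 (adjusted p = 0.0440) and with equal library totals (adjusted p = 0.00383). Over all alternatives the adjusted p was 0.00383 to 0.939, and the difference turned to 0.020 after quantile normalization.

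Outside the trimer, Eif2a and Eif2d encode 2 separate proteins that can bring a tRNA to the ribosome without eIF2. Eif2a stood at 41.5, 234, 246 and 284 normalized counts in HF1 to HF4, and 619, 508 and 716 in LF6 to LF8. HF1 was far below the other HF libraries, and all HF libraries lay below the libraries labelled LF. The difference was -1.91 ± 0.63 (SE; limma adjusted p = 0.0333). Without HF1 it was -1.26 (adjusted p = 0.00134), and the call was lost without LF6, LF7 or LF8 (adjusted p = 0.0855, 0.0681 and 0.0989, with adjusted p = 0.00134 to 0.0998 over all alternatives). Quantile normalization also ended the call of Eif2a (adjusted p = 0.0671), as did limma without the filter on low values or the trend (adjusted p = 0.0998 and 0.0615). Eif2d went the other way, with 474, 783, 748 and 741 normalized counts in HF1 to HF4, and 386, 469.9 and 416 in LF6 to LF8. HF1 was again the lowest HF library and lay just above LF7, so that the groups only just failed to overlap. The difference was 0.67 ± 0.20 (SE; limma adjusted p = 0.0234). This call was lost with equal library totals (adjusted p = 0.543) and without HF2, HF4, LF6 or LF8 (adjusted p = 0.0530, 0.0512, 0.0846 and 0.0711, with adjusted p = 0.00185 to 0.543 over all alternatives). It was also lost without the filter on low values (adjusted p = 0.0557).

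The exchange factor eIF2B recharges eIF2 with GTP. Of its 5 subunit genes 4 were lower in HF, 0 were higher and 1 did not pass, with a median of -0.98. Over all tested genes 28.7% were lower and 26.2% higher, with a median of -0.16. Eif2b5, the catalytic epsilon subunit, stood at 286, 212, 207 and 308 normalized counts in HF1 to HF4, and 766, 727 and 846 in LF6 to LF8. All HF libraries lay under those labelled LF, with a difference of -1.64 ± 0.19 (SE; limma adjusted p = 0.0002). Eif2b4, the delta subunit, stood at 259, 229, 225 and 271 normalized counts in HF1 to HF4, and 438, 494 and 522 in LF6 to LF8, again without overlap, with a difference of -0.98 ± 0.16 (SE; limma adjusted p = 0.00130). The alpha subunit gene Eif2b1 stood at 288, 235, 443 and 299 normalized counts in HF1 to HF4, and 557, 485 and 604 in LF6 to LF8. HF3 was its highest HF library and came close to LF7. Its difference was -0.83 ± 0.23 (SE; limma adjusted p = 0.0163), and the call was lost without LF6 (adjusted p = 0.0571) or LF8 (adjusted p = 0.0679; adjusted p = 0.00116 to 0.106 over all alternatives). Quantile normalization also ended the call of Eif2b1 (adjusted p = 0.106). Eif2b2, the beta subunit with the highest mean of the 5, stood at 632, 514, 377 and 363 normalized counts in HF1 to HF4, and 621, 745 and 744 in LF6 to LF8, and HF1 overlapped with LF6. Its difference of -0.61 ± 0.22 (SE; limma adjusted p = 0.0451) lay near the threshold and was lost without any 1 library other than HF1 (adjusted p = 0.0556 to 0.133; adjusted p = 0.00393 to 0.155 over all alternatives). Both edgeR runs lost the call too (edgeR adjusted p = 0.0601 and 0.0595). So did quantile normalization (adjusted p = 0.155) and limma without the filter on low values or the trend (adjusted p = 0.106 and 0.0713). Eif2b3, the gamma subunit, averaged 116 and 224 in HF and LF, overlapped in HF2 and did not pass (adjusted p = 0.0765). Without HF2 it passed (adjusted p = 0.0144; adjusted p = 0.0144 to 0.324 over all alternatives), as it did with equal library totals (adjusted p = 0.0217).

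The 4 kinases of eIF2 alpha each answer another stress. Of their genes 1 was higher and 2 were lower (beside 26.2% and 28.7% of all tested genes), and 1 did not pass. Eif2ak3 (ENSMUSG00000031668) encodes PERK, the kinase of the endoplasmic reticulum that senses unfolded proteins. It stood at 2603, 2425, 2536 and 2368 normalized counts in HF1 to HF4, and 779, 848 and 763 in LF6 to LF8. The HF libraries lay close together and all above the others. The difference was 1.64 ± 0.09 (SE; limma adjusted p = 2.7e-06), and it was higher under every alternative run. Eif2ak4, which encodes GCN2, the sensor of amino acid shortage, stood at 78.4, 117, 72.9 and 126 normalized counts in HF1 to HF4, and 312, 257 and 353 in LF6 to LF8. All HF libraries were below, with a difference of -1.66 ± 0.28 (SE; limma adjusted p = 0.00147).

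Eif2ak2 encodes PKR, which is switched on by double-stranded RNA and is itself induced by interferon. It stood at 375, 513, 857 and 1211 normalized counts in HF1 to HF4, and 1452, 1217 and 1366 in LF6 to LF8. It was uneven in HF, where HF4 almost reached LF7 and HF1 was the lowest. The difference of -1.004 ± 0.37 (SE; limma adjusted p = 0.0483) lay close to the threshold. It was lost without HF1, HF2, LF6, LF7 or LF8 (adjusted p = 0.0785, 0.116, 0.127, 0.0915 and 0.115; adjusted p = 0.00579 to 0.136 over all alternatives). Both edgeR runs lost it too (edgeR adjusted p = 0.0819 and 0.0680). The same held without the filter on low values or the trend (adjusted p = 0.136 and 0.0857) and with a pseudocount of 0.5 (adjusted p = 0.0505). Eif2ak1 encodes HRI, the kinase held in check by heme. It stood at 1914, 1464, 1416 and 1609.9 normalized counts in HF1 to HF4, and 1953, 1995 and 1969 in LF6 to LF8. HF was below in every library, HF1 by little, and the difference of -0.31 ± 0.12 (SE; limma adjusted p = 0.0555) did not pass. It passed without HF1 (adjusted p = 0.00837; adjusted p = 0.00059 to 0.144 over all alternatives). It also passed as lower with equal library totals (adjusted p = 0.00059), after quantile normalization (adjusted p = 0.00226) and with a minimum mean of 50 (adjusted p = 0.0447). The summed level of 10 alveolar macrophage markers, of which 9 had a mean of 10 or more in HF, was 34193 in HF1 against 9229.9 to 11377 in HF2 to HF4 and 23699.8 to 26186 in the libraries labelled LF. Chil3 made up most of that sum in every library. It stood at 30151 in HF1, 6508 to 9035 in HF2 to HF4 and 18663 to 20453 in the libraries labelled LF. Siglecf, another of these markers, stood at 1129 to 1432 in HF and at 19.5 to 89.3 in the libraries labelled LF. Marco, also on the list, was at 0 in all HF libraries. The part of these markers in the values of HF1 was not tested.

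Genes of the eIF3 complex were lower almost throughout. It is the largest initiation factor, a scaffold of 13 kinds of subunit on the small ribosomal subunit that links it to eIF4G. Of its 14 genes in the table (subunit j has 2), 13 were lower in HF, 0 were higher and 1 did not pass, with a median of -1.15. Over all tested genes 28.7% were lower and 26.2% higher, with a median of -0.16. Without overlap were 14 of 14, beside 62.2% of all tested genes. The mean in HF stood between 19.3% (Eif3e) and 64.9% (Eif3j2) of the mean in the libraries labelled LF. Eif3h, one of the subunits of the PCI/MPN octamer that forms the core, had the lowest p. It stood at 777, 635, 629 and 654 normalized counts in HF1 to HF4, and 2036, 2019 and 1877 in LF6 to LF8. The difference was -1.56 ± 0.11 (SE; limma adjusted p = 1.4e-05). Eif3b, which forms a module with subunits g and i, stood at 474, 694, 691 and 684 normalized counts in HF1 to HF4, and 2163, 2271 and 2298 in LF6 to LF8. HF1 was its lowest library, and the difference was -1.84 ± 0.16 (SE; limma adjusted p = 3.2e-05).

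Other subunits differed by other amounts. Eif3f, a second MPN-domain subunit, stood at 873, 699, 932 and 691 normalized counts in HF1 to HF4, and 1979, 1911 and 1938 in LF6 to LF8, with a difference of -1.29 ± 0.14 (SE; limma adjusted p = 0.0001). Eif3a, the largest subunit and the one with the highest mean count, stood at 2679, 2030.1, 2207 and 1823 normalized counts in HF1 to HF4, and 3370.1, 3326 and 3497 in LF6 to LF8. Its difference was smaller, -0.65 ± 0.13 (SE; limma adjusted p = 0.00336), and HF1 was the highest HF library. Eif3e, picked after its values were seen as the subunit with the lowest HF share, stood at 488, 242, 289 and 498 normalized counts in HF1 to HF4, and 2041, 2085 and 1758 in LF6 to LF8. HF2 and HF3 lay near each other and below HF1 and HF4, and the difference was -2.43 ± 0.27 (SE; limma adjusted p = 0.00015). Eif3i, Eif3m, Eif3g, Eif3l, Eif3k, Eif3d and Eif3c had differences between -2.06 and -0.77, with limma adjusted p from 0.00011 to 0.0069. Eif3j1, for the loosely held subunit j, lay near the threshold with -0.66 ± 0.23 (SE; limma adjusted p = 0.0418). It was lost without any 1 library other than HF2 (adjusted p = 0.0566 to 0.134; adjusted p = 0.00351 to 0.258 over all alternatives) and after quantile normalization (adjusted p = 0.258). Both edgeR runs lost it too (edgeR adjusted p = 0.0593 and 0.0557), as did limma without the filter on low values or the trend (adjusted p = 0.0971 and 0.0634). Its near-identical copy Eif3j2 averaged 25.2 and 38.9 and did not pass (adjusted p = 0.271), and reads of these copies may have been split. The 8 octamer genes (a, c, e, f, h, k, l, m) had a median of 43.5% of the LF level and the other 6 one of 50.7%. Within each HF library the median subunit stood at 47.2%, 42.4%, 46.4% and 42.9% of its level in the libraries labelled LF, so no single HF library carried the difference.

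**Figure D2:**
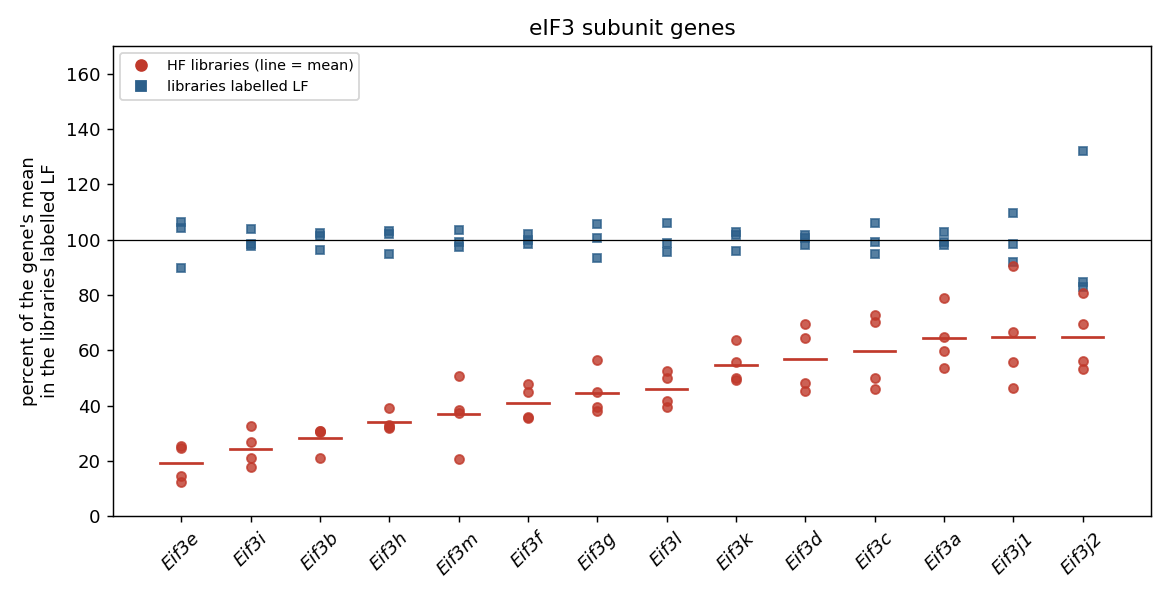
Normalized counts of the 14 eIF3 genes in each library, as a percent of the gene's mean in the libraries labelled LF (100); circles are HF libraries, squares the libraries labelled LF and short lines the HF means. HF means run from 19.3% for Eif3e to 64.9% for Eif3j2, and no HF circle reaches the squares of its gene.

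Paralogs of the eIF4A helicase differed from each other. Of the 5 genes of eIF4A and its helpers 3 were lower (beside 28.7% of all tested genes) and 2 did not pass. Eif4a1, the main helicase of eIF4F, stood at 2312, 2736, 2874 and 2578 normalized counts in HF1 to HF4, and 5456, 5054 and 4232 in LF6 to LF8. All HF libraries lay below, with a difference of -0.90 ± 0.11 (SE; limma adjusted p = 0.00029). Eif4a2, its close paralog, stood at 3471, 3448, 3389 and 3788 normalized counts in HF1 to HF4, and 3814, 3217 and 3088 in LF6 to LF8. Here the groups overlapped, with a difference of 0.07 ± 0.09 (SE; limma adjusted p = 0.560). It turned to -0.45 with equal library totals (adjusted p = 0.0022) and to -0.48 after quantile normalization (adjusted p = 0.0028), and passed as lower under both. The ratio of Eif4a1 to Eif4a2 (each + 1), which library scaling hardly moves, was 0.666, 0.793, 0.848 and 0.681 in HF1 to HF4 and 1.43, 1.57 and 1.37 in LF6 to LF8. Eif4a1 thus exceeded Eif4a2 in counts in every library labelled LF and in no HF library.

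Eif4a3, the helicase of the exon junction complex, stood at 1230.0, 1071, 1026 and 1109.6 normalized counts in HF1 to HF4, and 1743, 1746 and 1850.1 in LF6 to LF8. All HF libraries were below, with a difference of -0.68 ± 0.10 (SE; limma adjusted p = 0.00064). The helicase helper Eif4b stood at 1071, 951, 887 and 1706 normalized counts in HF1 to HF4, and 2006, 2013 and 1877 in LF6 to LF8. HF4 was well above the other HF libraries and still below LF8, and the difference was -0.82 ± 0.22 (SE; limma adjusted p = 0.0131). The related helper Eif4h stood at 4034, 3134, 4083 and 3823 normalized counts in HF1 to HF4, and 4621, 4272 and 4415 in LF6 to LF8. HF lay below by a small margin, and the difference of -0.24 ± 0.10 (SE; limma adjusted p = 0.0798) did not pass. Equal library totals (-0.76) or quantile normalization (-0.89) made it pass.

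Cap-binding genes were lower or did not pass, while Eif4ebp1 and Eif4ebp2, the genes of proteins that restrain eIF4E, were higher. Eif4e (ENSMUSG00000028156), which binds the cap and starts eIF4F, stood at 669, 489, 802 and 595 normalized counts in HF1 to HF4, and 1299.9, 1413 and 1443 in LF6 to LF8. HF lay below throughout, with a difference of -1.14 ± 0.17 (SE; limma adjusted p = 0.00081). Eif4e3, an atypical cap-binding relative, stood at 379, 458, 331 and 537 normalized counts in HF1 to HF4, and 1386, 1299 and 1484 in LF6 to LF8. All HF libraries lay far below the others, and the difference was -1.72 ± 0.18 (SE; limma adjusted p = 0.0001). Eif4e2 encodes 4EHP, which binds caps without eIF4G and represses translation. It stood at 1228, 1404, 1125 and 1053 normalized counts in HF1 to HF4, and 1549, 1371 and 1549 in LF6 to LF8. HF2 overlapped with LF7, and the difference of -0.31 ± 0.12 (SE; limma adjusted p = 0.0620) did not pass, although it did without HF2 (adjusted p = 0.0180; adjusted p = 0.00119 to 0.179 over all alternatives). It also passed with equal library totals (adjusted p = 0.00119) and after quantile normalization (adjusted p = 0.0141).

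All 3 scaffold genes were lower (beside 28.7% of all tested genes), by different amounts. Eif4g1, the main scaffold of eIF4F, stood at 1039.8, 1040.1, 1384 and 684 normalized counts in HF1 to HF4, and 2651, 2688 and 2864 in LF6 to LF8. HF4 was the lowest, and HF3 the highest, of the HF libraries, and none came near the others. The difference was -1.44 ± 0.21 (SE; limma adjusted p = 0.0007). Eif4g3, a second full-length scaffold, stood at 2604, 1938, 1983 and 2218 normalized counts in HF1 to HF4, and 3358, 3232 and 3126 in LF6 to LF8, with a difference of -0.58 ± 0.12 (SE; limma adjusted p = 0.00341). Eif4g2 encodes DAP5, a shorter form that lacks the site for eIF4E and serves cap-independent initiation. It stood at 11478, 11396, 10973 and 11355 normalized counts in HF1 to HF4, and 14105, 13909 and 14411 in LF6 to LF8. The libraries of each group lay close together, so that the small difference of -0.32 ± 0.05 (SE; limma adjusted p = 0.00058) passed. The ratio of Eif4g1 to Eif4g2 was 0.0907, 0.0913, 0.126 and 0.0603 in HF1 to HF4 and 0.188, 0.193 and 0.199 in LF6 to LF8.

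Of the 3 tested genes of 4E-BP proteins and the eIF4E transporter, 2 were higher, 1 did not pass and 0 were lower. Over all tested genes 26.2% were higher and 28.7% lower. Eif4ebp1 (ENSMUSG00000031490), the best known 4E-BP and a target of both mTOR and the stress factor ATF4, stood at 4238, 4061, 4938 and 4969.6 normalized counts in HF1 to HF4, and 1539, 1399 and 1403 in LF6 to LF8. Every HF library was at more than 2 times any library labelled LF. Its difference of 1.65 ± 0.10 (SE; limma adjusted p = 4.9e-06) was, with that of Eif2ak3, the largest increase among the 52 genes, and it was higher under every alternative run. Eif4ebp2 stood at 930.3, 979.7, 1002 and 1096 normalized counts in HF1 to HF4, and 701, 544 and 517 in LF6 to LF8. The groups did not overlap, with a difference of 0.78 ± 0.14 (SE; limma adjusted p = 0.00213), but with equal library totals it was 0.26 (adjusted p = 0.128, with adjusted p = 4.8e-06 to 0.128 over all alternatives). The ratio of Eif4ebp1 to Eif4ebp2 was 4.55, 4.14, 4.92 and 4.53 in HF1 to HF4 and 2.195, 2.57 and 2.71 in LF6 to LF8. Eif4enif1, which encodes the transporter 4E-T, stood at 1009.8, 751, 813 and 563 normalized counts in HF1 to HF4, and 649, 507 and 604 in LF6 to LF8. Its groups overlapped in HF4, and the difference of 0.40 ± 0.21 (SE; limma adjusted p = 0.138) did not pass. It passed without HF4 (adjusted p = 0.0296; adjusted p = 0.0289 to 0.650 over all alternatives) and after quantile normalization (adjusted p = 0.0289). With equal library totals it turned to -0.12. Eif4ebp3 had only 12 reads in HF against 9 in the libraries labelled LF, and 67.3% of its exons are shared with a read-through gene on the same strand.

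**Figure D3:**
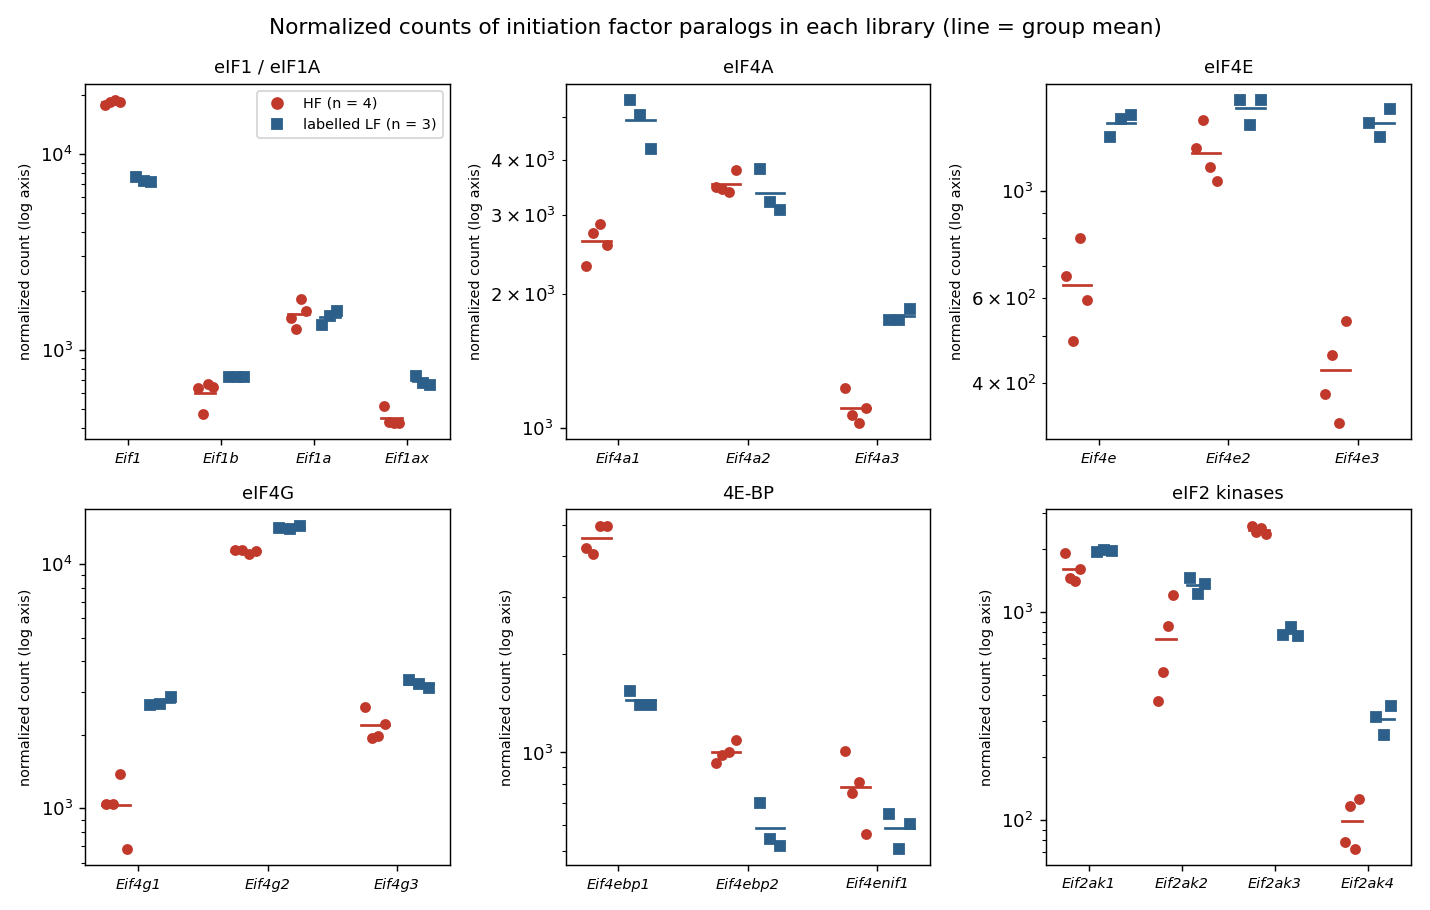
Normalized counts (log axis) of paralogs in 6 families, with circles for the 4 HF libraries, squares for the 3 libraries labelled LF and a line at each group's mean. Eif1, Eif4ebp1, Eif4ebp2 and Eif2ak3 lie higher in HF, Eif4a1, Eif4e, Eif4e3, Eif4g1 and Eif2ak4 lower, and Eif1a, Eif4a2, Eif4e2 and Eif4enif1 overlap.

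Among the late-acting factors 1 gene was higher, 3 were lower and 1 did not pass, beside 26.2% higher and 28.7% lower over all tested genes. Eif5 (ENSMUSG00000021282), which makes eIF2 hydrolyse its GTP at the start codon, stood at 12719.9, 11935, 11988 and 11367 normalized counts in HF1 to HF4, and 5298, 5399.7 and 5202 in LF6 to LF8. All HF libraries were at more than 2 times any library labelled LF, with a difference of 1.18 ± 0.06 (SE; limma adjusted p = 1.5e-06) that stayed higher under every alternative run. Eif5b, the GTPase that joins the large subunit, went the other way, with 305, 383, 239.9 and 251 normalized counts in HF1 to HF4, and 775, 719 and 806 in LF6 to LF8. The difference was -1.40 ± 0.19 (SE; limma adjusted p = 0.00049). Eif6, which keeps free large subunits from joining too early, stood at 722, 771, 723 and 605 normalized counts in HF1 to HF4, and 1249, 1326 and 1550.0 in LF6 to LF8. It too was lower, with a difference of -0.96 ± 0.13 (SE; limma adjusted p = 0.00048).

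Eif5a carries hypusine, an amino acid found in no other protein than eIF5A, and helps the ribosome through difficult peptides. It stood at 7063, 5589, 6950.4 and 5841 normalized counts in HF1 to HF4, and 5957, 6012 and 6211 in LF6 to LF8. The groups overlapped, with a difference of 0.06 ± 0.10 (SE; limma adjusted p = 0.605). It turned to -0.46 with equal library totals (adjusted p = 0.0049) and to -0.72 after quantile normalization (adjusted p = 0.0003), and passed as lower under both. Its rarer paralog Eif5a2 had 29, 0, 92 and 0 reads in HF1 to HF4 and 321, 288 and 381 in LF6 to LF8. The normalized means were 34.1 and 239, with all HF libraries below and uneven among themselves. Its log2 difference of -4.95 ± 1.67 (SE; limma adjusted p = 0.0353) rests on the pseudocount in the libraries at 0. The call was lost without HF2, HF4, LF6, LF7 or LF8 (adjusted p = 0.0826, 0.0747, 0.0893, 0.0864 and 0.0927), in edgeR and DESeq2 (adjusted p = 0.126 and 0.0960), and without the filter on low values or the trend (adjusted p = 0.105 and 0.0630; adjusted p = 0.00758 to 0.126 over all alternatives). Both enzymes that make hypusine were lower in HF, beside 28.7% of all tested genes. Dhps averaged 199 and 394, with -1.03 ± 0.27 (SE; limma adjusted p = 0.0119), and Dohh averaged 18.9 and 122, with -2.71 ± 0.46 (SE; limma adjusted p = 0.00149). Quantile normalization ended the call of Dhps (adjusted p = 0.111).

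Ratios of paralogs within a library were compared over 13 pairs, with exact two-sided permutation tests of 4 against 3 libraries, in which no p can be below 0.0571. In 10 pairs the groups did not overlap, each at that smallest p (0.0743 adjusted over the 13), so none passed 0.05. How often ratios of other gene pairs would not overlap was not computed. Taken singly, 62.2% of all tested genes did not overlap. The pair of Eif5a and Eif5a2 is one of the 10 and rests on libraries at 0. Eif2ak2 to Eif2ak3 differed most of the remaining pairs, at 0.144, 0.212, 0.338 and 0.512 in HF1 to HF4 and 1.86, 1.43 and 1.79 in LF6 to LF8. The PKR gene thus exceeded the PERK gene in counts in every library labelled LF and in no HF library. Eif1 to Eif1b was 27.7, 39.4, 28.2 and 28.5 in HF1 to HF4 and 10.5, 10.004 and 9.91 in LF6 to LF8. Eif2ak1 to Eif2ak4 was 24.1, 12.4, 19.2 and 12.7 in HF1 to HF4 and 6.25, 7.72 and 5.56 in LF6 to LF8. Both ratios were higher in every HF library. Eif1ax to Eif1a had a mean of 0.299 ± 0.0562 (SD, n = 4) for HF, below the 0.475 ± 0.0682 (SD, n = 3) for the libraries labelled LF. Eif4e to Eif4e2 averaged 0.543 and 0.934, and Eif4g1 to Eif4g3 0.486 and 0.846. The ratios of Eif4a1 to Eif4a3, Eif4e to Eif4e3 and Eif3j1 to Eif3j2 overlapped between the groups (exact permutation p = 0.286, 0.114 and 0.743).

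**Figure D4:**
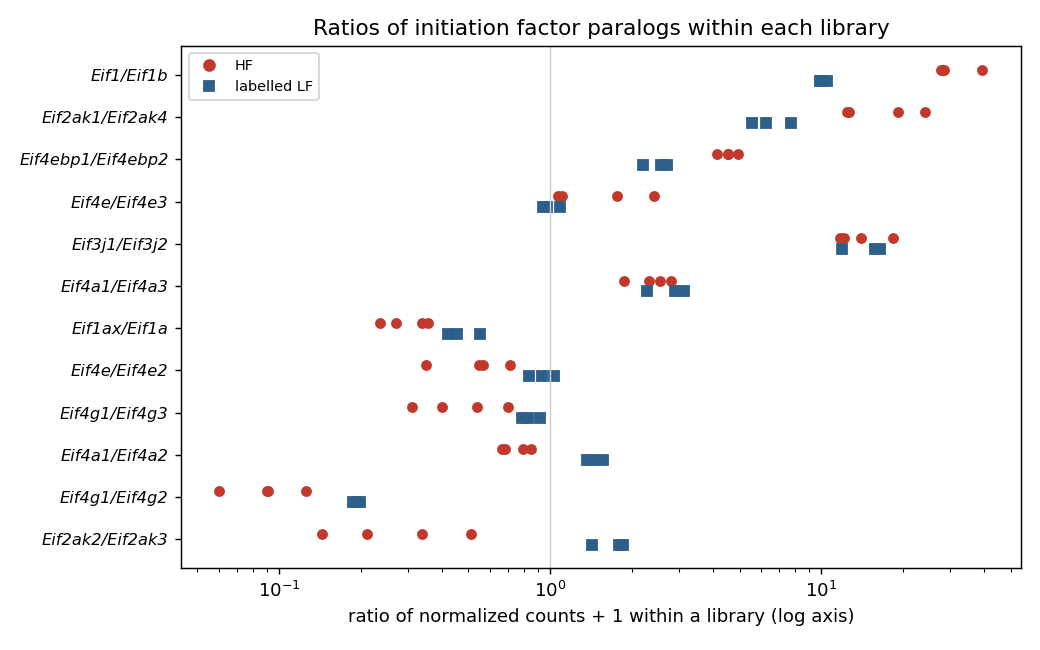
Ratio of the normalized counts (+ 1) of 2 paralogs within each library, on a log axis, with circles for HF and squares for the libraries labelled LF. The groups do not overlap in 9 of the 12 pairs drawn; Eif4a1 to Eif4a2 and Eif2ak2 to Eif2ak3 lie below 1 in every HF library and above 1 in every library labelled LF.

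Genes that act with the initiation factors under other names were read from the same fit, and paired means give HF first. Of 16 partners 8 were lower (beside 28.7% of all tested genes), 2 were higher (beside 26.2%) and 6 did not pass. Larp1, which binds mRNAs with a pyrimidine tract at the cap, averaged 189 in HF against 1288 in the libraries labelled LF, with -2.84 ± 0.29 (SE; limma adjusted p = 8.7e-05). Cyfip1, which can hold eIF4E, averaged 1752 and 5461, with -1.67 ± 0.18 (SE; limma adjusted p = 0.00012). Paip2, an inhibitor of the poly(A)-binding protein, was higher at 4945 and 2584, with 0.93 ± 0.11 (SE; limma adjusted p = 0.00024). The helicase gene Ddx3x was higher at 6596 and 4061, with 0.70 ± 0.09 (SE; limma adjusted p = 0.00028), but the difference was 0.18 with equal library totals (adjusted p = 0.133) and turned to -0.02 after quantile normalization (adjusted p = 3.2e-12 to 0.843 over all alternatives).

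Of 12 genes of kinases and phosphatase subunits that act on the factors, 4 were higher (33.3%, beside 26.2% of all tested genes), 2 were lower (16.7%, beside 28.7%) and 6 did not pass, shares near those of all genes. Mknk1, one of the kinases that phosphorylate eIF4E, was higher at 6215 and 2173, with 1.52 ± 0.08 (SE; limma adjusted p = 2e-06). Mknk2, the other, averaged 4668 and 3255, with 0.52 ± 0.08 (SE; limma adjusted p = 0.00079), but turned to -0.0024 with equal library totals and to -0.07 after quantile normalization (adjusted p = 6.8e-10 to 0.981 over all alternatives). Rptor, the mTOR partner that brings 4E-BP to the kinase, was lower at 195 and 610.4, with -1.75 ± 0.35 (SE; limma adjusted p = 0.00323). Tsc2, a brake of mTOR, was lower at 662 and 1089, with -0.73 ± 0.15 (SE; limma adjusted p = 0.00355). Also higher, and named after their values were seen, were Ppp1r15a and Rheb. Ppp1r15a encodes GADD34, which brings a phosphatase to eIF2 alpha. It averaged 4858 and 2575, with 0.89 ± 0.19 (SE; limma adjusted p = 0.00507) and adjusted p = 1.4e-05 to 0.158 over all alternatives. Rheb, which switches mTOR on, averaged 2303 and 1755, with 0.38 ± 0.12 (SE; limma adjusted p = 0.0280) and adjusted p = 0.00663 to 0.437 over all alternatives. Equal library totals moved the median of all genes by -0.51, a larger step than the 0.38 of Rheb, so its direction may not hold there. Mtor itself averaged 460.3 and 495 and did not pass (adjusted p = 0.660).

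Of 10 genes listed with the elongation and release factors 8 were lower, 1 was higher and 1 did not pass, with a median of -1.24. Over all tested genes 28.7% were lower and 26.2% higher, with a median of -0.16. The list also holds Eef2k, a kinase gene, and Eef1e1, for an auxiliary protein of the tRNA synthetase complex. Eef2 averaged 3284 and 7182 and Eef1a1 6003 and 15301, with -1.13 ± 0.07 (SE; limma adjusted p = 4.2e-06) and -1.35 ± 0.09 (SE; limma adjusted p = 6.2e-06). The exception was Eef2k, the kinase that inactivates eEF2. It stood at 1877, 1805, 2342 and 1532 normalized counts in HF1 to HF4, and 71.2, 115 and 102 in LF6 to LF8. All HF libraries were above, with 4.30 ± 0.22 (SE; limma adjusted p = 1.6e-06). The gene that did not pass was Etf1, a release factor, at 1481 and 1677.

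Spread between libraries was larger in HF. The median coefficient of variation of the 52 genes was 16.8% over the HF libraries and 5.62% over the libraries labelled LF, beside 34.0% and 11.6% for all tested genes. It was larger in HF for 44 of the 52, beside 84.4% of all tested genes. No HF library stood apart over the family: the median deviation from the HF mean lay between -0.040 and 0.059 on the log2 scale, and each was the lowest HF library for 11 to 16 genes and the highest for 8 to 18. The sources used here do not say whether strand was used in counting, and without it reads of genes that overlap on opposite strands cannot be told apart. By GENCODE M21 this touches 43.3% of the exons of Eif3d, 19.0% of those of Eif3j1, 16.8% of those of Eif5b, 15.3% of those of Eif1ad and 12.7% of those of Eif1b. Eif4e3 shares 14.8% of its exons with the protein-coding gene Gm20696 on the same strand, where strand cannot tell reads apart.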

How the data were processed

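RNA from sorted lung cells of 4 HF and 3 LF mice was isolated with TRIzol LS and made into libraries with a SMART-Seq kit, per the labels' protocols. DESeq2 1.20.0, featureCounts 1.6.3 and STAR 2.6.1b are listed without roles in the submitters' processing notes. Neither build nor annotation of their counting is given in the sources used here. The library columns hold what the deposited table's name calls normalized counts, a signal at or above 0. Every value (100% per library, within 0.01 of a whole number) was a whole multiple of the value of 1 read, so reads were recovered, 13943173 to 18983351 per library. Per the file headers, the table also gives the authors' log2 fold changes, their errors and test statistics (scores), and p-values. Sentences that use them name the authors' deposited table. The LF columns are numbered 6 to 8 and the labels 1 to 3, so these libraries carry no replicate number. There were 0 unmapped columns.

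The initiation factor genes, the gene lists and the pairs of paralogs were chosen with earlier results of these data known. For genes with a mean of at least 10, limma 3.58.1 (trend, R 4.3.3) compared log2(normalized count + 1), with Benjamini-Hochberg adjustment over 14936 genes and a threshold of 0.05. Differences are HF minus LF on that scale, where the pseudocount draws low values together, while libraries near 0 can make a difference of mean logs larger than that of the means (Eif5a2 was -4.95 here and -2.79 in edgeR). An adjusted p given alone in parentheses is limma's, and ranges over alternatives include edgeR and DESeq2. As alternatives, pseudocounts of 0.5 and 5, a minimum mean of 50 or none, libraries scaled to equal totals, quantile normalization, limma without trend or with a robust prior, leaving out each library, and edgeR 4.0.16 or DESeq2 1.42.0 on recovered reads were tried. On recovered reads edgeR with the authors' size factors called 7624 genes. The tests were tried on simulated data. The design text counts as many mice as libraries and says nothing of pooling. Values in every library are given for all tested members but those of eIF3 and eIF2B, where the highest mean and the 3 lowest p chose the genes named; of other pathway genes, the 3 with the lowest p per list and those against its majority. Eif3e, Eif2b3, Ppp1r15a, Rheb, Mtor, Etf1 and the eIF3 genes given by range were added after their values were seen. Promoters are from RefSeq (GRCm38.p6), 1 window per gene, and 99.9% of the table's gene IDs were found in GENCODE M21. Figures were drawn with matplotlib 3.10.9.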

Additional observations from a re-analysis of the deposited data

Results flagged for a closer look

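Among the 52 tested genes, 5 had 1 HF library far from the other HF libraries: its gap to the nearest of them, as a share of the whole range, was above the 95% limit of Dixon's test for 4 values. Chance flags about 1 in 20 such groups, and 52 were looked at. In HF1, Eif1ax stood at 513 against 422 to 428 in the other HF libraries, and Eif3h at 777 against 629 to 654. HF1 was the lowest in Eif2d, at 474 against 741 to 783, and in Eif3b, at 474 against 684 to 694. In HF2, Eif1b stood at 467 against 636 to 667. Of these genes Eif1ax, Eif3h and Eif3b were lower and Eif2d higher in HF. The 4 calls stayed without the library named. HF1 also had the highest summed level of the 10 alveolar macrophage markers, most of it from Chil3. It was the highest HF library in the neutrophil markers Ltf, Ngp and Camp too, but not in Lcn2 or Cxcr2. The part of these markers in the flagged values was not tested.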

How the results depend on the processing

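The number of initiation factor genes called was 40 and stayed between 33 and 47 under all alternatives, with 4 to 8 higher and 28 to 43 lower. It was 33 to 39 with 1 library left out (5 or 6 higher, 28 to 34 lower), and calls over all genes were then 6450 to 8464. edgeR called 6 higher and 30 lower, DESeq2 6 and 33. Among all genes, edgeR with the authors' size factors called 3921 higher and 3703 lower, and DESeq2 4378 and 4094. Under all alternatives the calls among all genes were 2696 to 4378 higher and 3086 to 6295 lower. Of 65 genes, the 52 tested initiation factor genes and 13 pathway genes named by rule, 43 kept direction and side of the threshold under every alternative. Of 1169 values under alternatives, 1077 did so, 60 lost the call, 18 gained it and 14 changed sign. Pathway genes named after their values were seen are not in this count, and the calls of Ppp1r15a and Rheb did not hold under every alternative (adjusted p up to 0.158 and 0.437). The initiation factor genes whose call was lost without 1 library were Eif2a, Eif2d, Eif2ak2, Eif2b1, Eif2b2, Eif3j1 and Eif5a2. With equal library totals the sign changed for Eif4a2 (-0.45), Eif4enif1 (-0.12), Eif5a (-0.46), Eif1a (-0.47), Eif1ad (-0.28) and Mknk2 (-0.0024). After quantile normalization it changed for Eif2s3x (0.020), Eif4a2 (-0.48), Eif5a (-0.72), Eif1a (-0.11), Ddx3x (-0.022) and Mknk2 (-0.069). None of these but Ddx3x and Mknk2 had passed. With 1 library left out, the difference of Eif1a ranged from -0.032 (without HF3) to 0.14 and was -0.013 without LF6, and the log2 ratio of Eif3j1 to Eif3j2 ranged from -0.22 to 0.014 (without LF6) and was 0.0051 without HF3. The causes were not tested. No paired analysis was possible because the LF columns carry the numbers 6 to 8 and the HF columns 1 to 4. Precision is limited by 4 and 3 libraries and, for Eif4ebp3, Eif2c5, Eif3j2 and Eif5a2, by few reads.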

Other observations

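The values of 5 more genes, chosen because they were lower in HF, are given as a description. Gspt1, which encodes the release factor eRF3a, averaged 310.4 in HF against 819 in the libraries labelled LF, with -1.41 ± 0.16 (SE; limma adjusted p = 0.00017). Abce1, which splits ribosomes after release so that subunits can start again, averaged 387 in HF against 1489 in the libraries labelled LF, with -2.01 ± 0.27 (SE; limma adjusted p = 0.00042). Eef1e1, an auxiliary protein of the tRNA synthetase complex, averaged 46.7 in HF against 348 in the libraries labelled LF, with -3.23 ± 0.69 (SE; limma adjusted p = 0.00485). Gspt2, the second eRF3 gene, was listed at 0 in 3 HF libraries and averaged 2.57 and 91.8. Pabpc1, the main poly(A)-binding protein gene, averaged 2608 in HF against 4306 in the libraries labelled LF, with -0.73 ± 0.10 (SE; limma adjusted p = 0.00059).

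Among the 10 pseudogene rows left out by the suffix, Eif4a-ps4 averaged 112 normalized counts in HF against 308 in the libraries labelled LF. Eif1-ps1 averaged 72.8 and 30.5, and Eif1-ps2 16.4 and 6.51, so these rows differed in the same direction as Eif1. Eif5al3-ps averaged 37.3 and 41.2. Whether reads of the parent genes were counted on these rows was not tested.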
